A study of Mus musculus with 3 samples.

Results

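The genes described here are 9 core genes of YAP/TAZ signalling, taken by symbol from the protein-coding entries of the count table, which lists 56748 genes in all. They are the co-activators Yap1 and Wwtr1 (the gene for TAZ), their DNA-binding partner Tead1, the pathway regulators Lats2, Amotl2 and Ajuba, and the target genes Ccn1, Ccn2 and Ankrd1. All 9 were found and all reached 1 CPM (read counts scaled by library size) in at least 1 library. The fibroblasts came from visceral adipose tissue of mice with a wild-type genotype on a high-fat diet and are what remained of the stromal vascular fraction after magnetic depletion of CD45, CD31 and Ter119 positive cells. The treated cultures received either 3 ng/mL of oncostatin M (Osm, recombinant, mouse sequence) or 3 ng/mL of TGF-beta1 (recombinant, human sequence) for 24 h. The control culture received vehicle, and its time is not stated. Strain, age, passage and number of mice are not stated either. Each condition is a single library, so the differences have no replicate check and carry no p-value.

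YAP and TAZ carry mechanical and cell density cues into the nucleus. The Hippo kinases, which end in LATS1 and LATS2, phosphorylate them and hold them in the cytoplasm. When unphosphorylated they enter the nucleus and act on genes through TEAD transcription factors, which recognise a GGAATG core. Angiomotin proteins such as AMOTL2 bind YAP and keep it out of the nucleus, and AJUBA binds and restrains the LATS kinases. LATS2 and AMOTL2 are also YAP/TAZ targets and so feed back on the pathway. In fibroblasts YAP and TAZ are known for their part in the response to stiff matrix and for their cooperation with Smad factors at genes such as Ccn2. Most control of YAP and TAZ is of the protein, by phosphorylation, location and turnover, which RNA counts do not measure.

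The promoters show what part of the set carries the TEAD core. Promoter windows of RefSeq (build GRCm38.p6), running from 250 bases before to 50 after an annotated start, matched 7 of the 9 genes by symbol: Ccn1, Ankrd1, Amotl2, Ajuba, Lats2, Yap1 and Wwtr1. Ccn2 and Tead1 matched no window by symbol, so their promoters were not searched. The TEAD core GGAATG, searched on both strands (CATTCC on the other), was present in a window of all 7. Among all 32851 windows of that length 14.7% held it, and 16.6% of the 27025 genes had a window with it. Ankrd1 and Ajuba held 2 matches each, while 1.36% of all windows held 2 or more. Stretches of 250 bases before the start are shown because 3 belong to genes whose counting interval lay above 1 for TGF-beta1 over vehicle and 1, Amotl2, to a gene whose interval spans 1. They are printed 5′ to 3′ on the gene's strand, with the TEAD core in capitals.
Ccn1, chr3:145649986-145650235, minus strand: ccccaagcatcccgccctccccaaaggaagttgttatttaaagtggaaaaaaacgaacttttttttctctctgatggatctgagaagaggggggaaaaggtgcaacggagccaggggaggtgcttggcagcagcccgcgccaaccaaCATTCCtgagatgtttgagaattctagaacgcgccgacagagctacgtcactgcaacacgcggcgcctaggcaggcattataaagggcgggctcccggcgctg
Ankrd1, chr19:36119845-36120094, minus strand: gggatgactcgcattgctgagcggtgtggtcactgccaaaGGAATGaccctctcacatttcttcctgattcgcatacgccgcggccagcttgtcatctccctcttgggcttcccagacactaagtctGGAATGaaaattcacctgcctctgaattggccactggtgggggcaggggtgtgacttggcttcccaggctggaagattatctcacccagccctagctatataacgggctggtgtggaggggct
Ajuba, chr14:54577662-54577911, minus strand: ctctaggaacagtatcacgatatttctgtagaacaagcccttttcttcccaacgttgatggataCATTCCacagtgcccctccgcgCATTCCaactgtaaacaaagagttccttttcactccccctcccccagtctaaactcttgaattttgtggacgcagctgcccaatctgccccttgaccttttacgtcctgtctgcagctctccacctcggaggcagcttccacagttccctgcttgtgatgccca
Amotl2, chr9:102717554-102717803, plus strand: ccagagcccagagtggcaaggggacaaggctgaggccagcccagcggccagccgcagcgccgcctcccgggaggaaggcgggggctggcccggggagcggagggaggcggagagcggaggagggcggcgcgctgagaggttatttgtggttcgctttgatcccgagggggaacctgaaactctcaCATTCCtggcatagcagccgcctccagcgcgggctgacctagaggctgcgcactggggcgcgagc

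The core began 103 bases before the start in Ccn1 and 65 before it in Amotl2. In Ankrd1 the matches began 210 and 123 bases before the start, and in Ajuba 186 and 164 before it. Yap1 had 1 match, 141 bases before the start. Wwtr1 has 2 annotated starts close together, so its matches 136 and 170 bases before them are the same site. Lats2 also has 2 windows, and its single match lay 4 bases past the start of the first. The Smad core CAGACA, searched on both strands (TGTCTG on the other), occurred in Ankrd1, 137 bases before the start, and in Ajuba, 57 before it, and in 21% of all windows. The AP-1 motif TGANTCA and the SRF CArG box, in 7.81% and 1.63% of all windows, had no match in these 7 genes. No match of 1 motif overlapped a match of another. A match is a string of letters and not a measured binding site. Over the tested protein-coding genes, those with a TEAD core in a window (1364 genes) had a median log2 ratio of 0.02 for TGF-beta1 over vehicle and those without (8185 genes) one of 0.03.

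**Figure D1:**
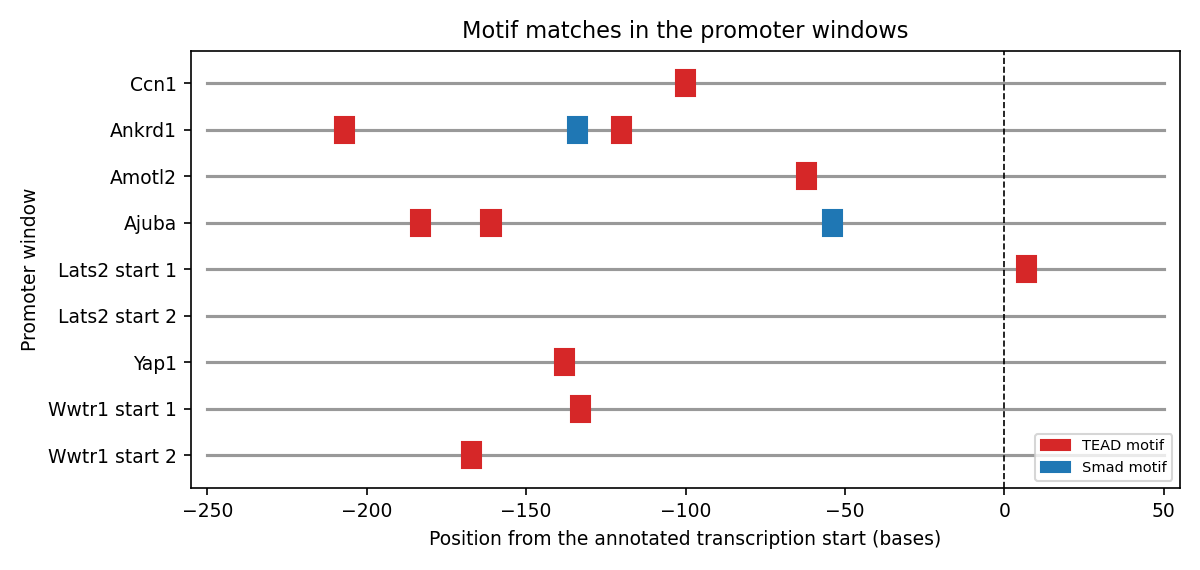
Matches to the TEAD core (red) and the Smad core (blue) in the 300-base promoter windows of 7 genes, by position from the annotated start (dashed line). Every gene has a window with a TEAD core, Ankrd1 and Ajuba have 2, and only these 2 genes also have a Smad core.

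The libraries held 18336068 (vehicle), 17319872 (Osm) and 18533741 (TGF-beta1) counted reads. With 3 counts as the floor, a count of 0 allows 0.163, 0.173 and 0.163 CPM. The 6 fibroblast markers summed to 9131, 8543 and 11093 CPM in the same order of libraries, with none at 0. Without Col1a1 they summed to 4846, 4520 and 3054 CPM, and 5 of the 6 were lower with TGF-beta1 than with vehicle (median log2 ratio -0.48; Pdgfra at 1129, 1122 and 697.5 CPM). Ptprc and Pecam1, the genes for CD45 and CD31, stayed at or below 0.271 CPM. Of 7 leukocyte markers 4, 3 and 4 were at 0, with sums of 17.6, 15.3 and 13.9 CPM, and the 4 erythroid markers found were all at 0. The 5 adipocyte markers summed to 0.38, 0.288 and 0.0543 CPM. The 5 endothelial markers summed to 50.4, 40.7 and 36.3 CPM, nearly all of it Tek. The 6 mesothelial markers summed to 41.2, 40.4 and 49.8 CPM, mostly Wt1, which visceral fat fibroblasts also express. The 6 mural markers summed to 37.2, 37.9 and 94 CPM, and without Cspg4 to 28.6, 30.5 and 19.2 CPM. The part of these cell types in the differences below was not tested. In bulk RNA, a change in the share of cells expressing a gene and a change in RNA per cell cannot be told apart.

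The levels of the 9 genes spanned a wide range. On the length-scaled FPKM scale (counts scaled by gene length and library size) of the authors' deposited table, the order in the vehicle library was Ccn2 (345.2), Ccn1 (198.5), Amotl2 (47.9), Wwtr1 (38.4), Tead1 (18.3), Yap1 (13.8), Lats2 (8.55), Ajuba (5.09) and Ankrd1 (1.85). The order was the same in the Osm and TGF-beta1 libraries. No neighbours in it had overlapping 95% counting intervals except Lats2 and Ajuba with TGF-beta1, at 8.55 and 8.42 FPKM. These intervals cover counting error only, not error from the gene length used or from shared sequence. The place of Lats2 is uncertain, because it shares sequence with an overlapping gene model (given below). Ccn2 ranked 79th of 21970 protein-coding genes by FPKM with vehicle, 86th with Osm and 31st with TGF-beta1. Ccn1, the next, ranked 160th, 178th and 105th. Ankrd1, best known as a gene of heart and skeletal muscle, ranked 9299th, 8732nd and 7976th. The 7 striated muscle markers summed to 0.217, 0.23 and 0.38 CPM. Each library had 5 of the 7 at 0, though not always the same 5.

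**Figure D2:**
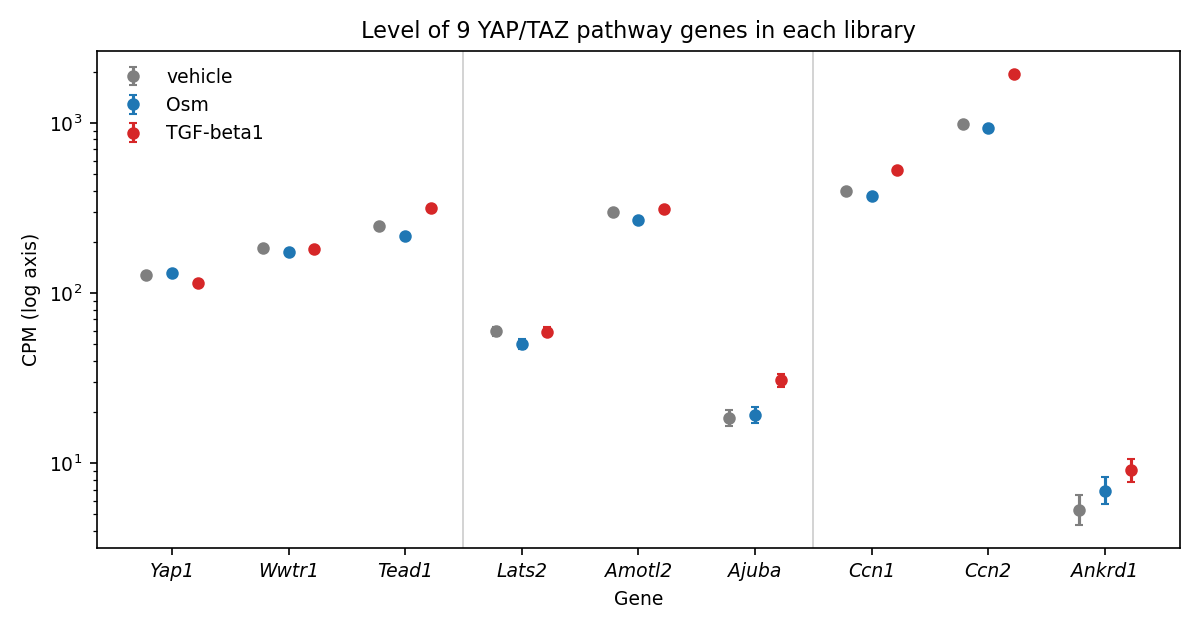
CPM (log axis) of the 9 genes in the vehicle (grey), Osm (blue) and TGF-beta1 (red) libraries, with exact 95% Poisson intervals of the counts, 1 library per point. Ccn2 stands at 987.1, 933.9 and 1936 CPM and Ankrd1 at 5.33, 6.91 and 9.11 CPM, while Wwtr1 lies between 174.8 and 183.2 CPM in all 3.

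With TGF-beta1 the targets Ccn2 and Ankrd1 and the regulator Ajuba were higher than with vehicle by more than 1.5-fold. Ccn1 and Tead1 had ratios of 1.33 and 1.28, short of that rule, and Yap1 and Wwtr1 had ratios of 0.898 and 0.989. Of the 9 genes, 3 (33.3%) were at least 1.5-fold higher with a counting interval above 1 (Ccn2, Ankrd1 and Ajuba), against 6.01% of the 13712 genes tested. Among the 10782 genes that reached 5 CPM in a library, as all 9 did, the share was 4.81%. None of the 9 was at least 1.5-fold lower, against 9.53% of tested genes and 7.45% of those at 5 CPM. None passed the stricter rule of 2-fold in either direction, which 2.27% of tested genes passed upward and 4.79% downward. The median log2 ratio of the 9 was 0.35, and that of all tested genes 0.01. An interval above 1 was found for 5 of the 9 and one below 1 for 1, against 27.8% and 24.2% of tested genes. Most of the 9 have high counts, where intervals are narrow, and the shares of tested genes are not matched for count level. The genes were chosen with earlier results of these libraries known, so these shares are descriptions only.

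Among the targets, Ccn2 (connective tissue growth factor, a secreted matricellular protein; ENSMUSG00000019997, chromosome 10, 24471340 to 24474581, build mm39) had counts of 18163 with vehicle, 16206 with Osm and 35677 with TGF-beta1. The TGF-beta1 library stood far above the other libraries, at 1936 CPM against 987.1 with vehicle, a ratio of 1.96 (95% counting interval 1.93 to 2.00). Only 2.49% of tested genes had a higher ratio. Ccn2 is overlapped on the opposite strand by the long noncoding gene Gm15270, which had 500, 610 and 640 counts, few beside those of Ccn2. Whether the counting used strand is not stated.

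Ccn1 (CYR61, the matricellular relative of CCN2; chromosome 3, 145352731 to 145355736) was at 400.5 CPM with vehicle, 371.2 with Osm and 532.2 with TGF-beta1. Its ratio of TGF-beta1 over vehicle was 1.33 (1.29 to 1.37), above 1 by counting error but short of the 1.5-fold rule. Ccn1 therefore differed in the same direction as Ccn2 and by less, and their intervals do not overlap. Ankrd1 (an ankyrin repeat protein of nucleus and sarcomere; chromosome 19, 36089361 to 36097499) had only 98, 120 and 168 counts, or 5.33, 6.91 and 9.11 CPM. Its ratio of 1.71 (1.33 to 2.22) is the least precise of the set. An antisense noncoding gene within Ankrd1 had 9, 9 and 6 counts.

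The regulators did not move together. Ajuba (a LIM-domain scaffold; chromosome 14, 54804929 to 54815015) was at 18.5 CPM with vehicle, 19.2 with Osm and 30.7 with TGF-beta1, a ratio of 1.65 (1.44 to 1.90) for TGF-beta1 over vehicle. Amotl2 (angiomotin-like 2; chromosome 9, 102593871 to 102610617) was at 301.3, 268.6 and 312.3 CPM, and its ratio of 1.04 (0.999 to 1.08) spans 1. Lats2 (a kinase that phosphorylates YAP and TAZ; chromosome 14, 57927119 to 57995845) had 1096 counts both with vehicle and with TGF-beta1 and 875 with Osm. Its TGF-beta1 over vehicle ratio was 0.998 (0.917 to 1.09). The feedback targets Lats2 and Amotl2 thus differed less than Ccn2, whose interval lies above both of theirs. The level of Lats2 is uncertain: 41.2% of its 50-base windows are shared with Gm49361, an overlapping gene model on the same strand that had no count in any library. In the other 8 genes at most 1.70% of windows occurred in a transcript of another gene.

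The co-activators and TEAD1 differed from each other. Yap1 (chromosome 9, 7932000 to 8004597) was at 127.5 CPM with vehicle, 131.9 with Osm and 114.6 with TGF-beta1, 1.11-fold lower with TGF-beta1 (1.05 to 1.18). It was the single member whose interval lay below 1. Wwtr1 (chromosome 3, 57363070 to 57483331) was at 183.2, 174.8 and 181.1 CPM, and its ratio of 0.989 (0.942 to 1.04) spans 1. Tead1, which ties YAP and TAZ to DNA (chromosome 7, 112278525 to 112506014), was at 247.9, 216.4 and 316.7 CPM, 1.28-fold higher with TGF-beta1 (1.23 to 1.33). Its level was thus highest with TGF-beta1 and lowest with Osm.

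**Figure D3:**
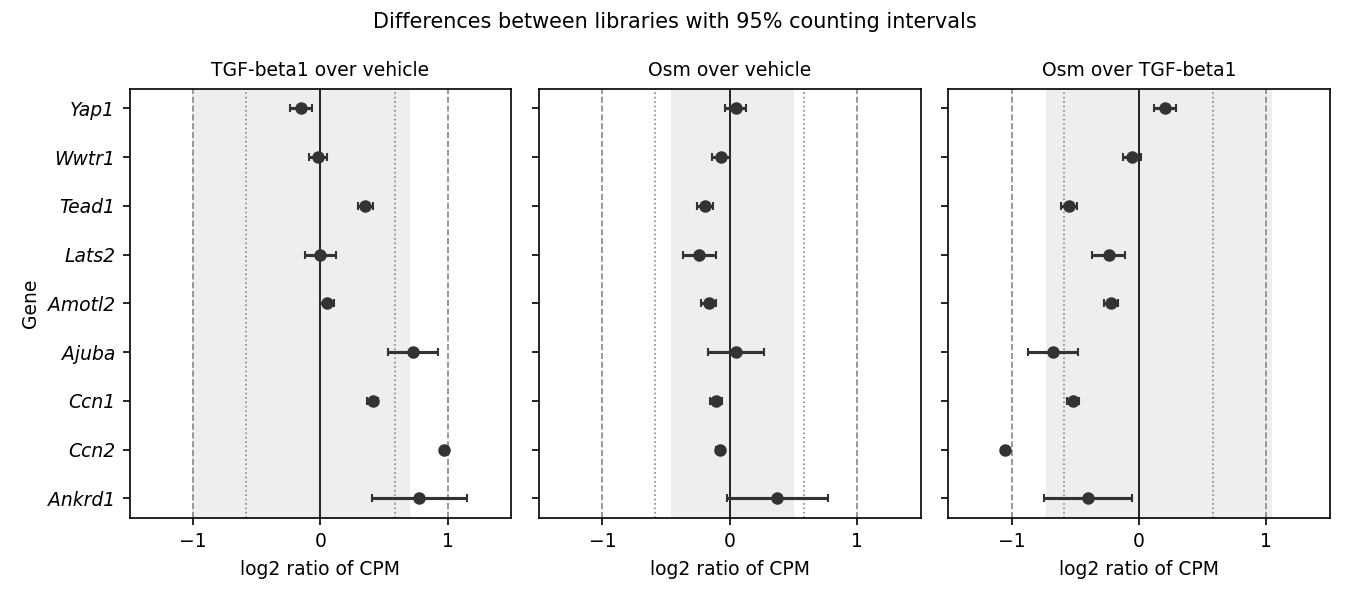
log2 ratios of CPM for the 9 genes in the 3 comparisons, with exact 95% counting intervals. Dashed lines mark 2-fold, dotted lines 1.5-fold, and grey bands the 5th to 95th percentile of all tested genes; with TGF-beta1 over vehicle Ccn2 (0.97), Ankrd1 (0.77) and Ajuba (0.73) lie beyond the band.

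With Osm the 9 genes stayed close to vehicle. None was at least 1.5-fold higher or lower, against 2.1% and 1.66% of tested genes (0.696% and 0.631% at 5 CPM), and none was at least 2-fold higher or lower, against 0.948% and 0.649%. The median log2 ratio was -0.08, and that of all tested genes 0.00. Of the 9, 5 had an interval below 1, none an interval above 1 and 4 an interval that spans 1, while 10.6% of tested genes had an interval below 1 and 10.9% one above. Intervals are narrow at high counts, as in most of the 9, so small ratios can exclude 1. The lowest was Lats2, 1.18-fold lower (1.08 to 1.29), followed by Tead1, 1.15-fold lower (1.1 to 1.2), and Amotl2, 1.12-fold lower (1.08 to 1.17). Ccn1 was 1.08-fold lower (1.04 to 1.12) and Ccn2 1.06-fold lower (1.03 to 1.08). These differences are larger than counting error, but the spread between cultures was not measured. Ankrd1 had the largest ratio upward, 1.30 (0.986 to 1.71), with an interval that spans 1, as did Yap1, Wwtr1 and Ajuba.

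Set directly against each other, the ligands differed by at least 1.5-fold in 2 of the 9, Ccn2 and Ajuba, both lower with Osm. This comparison shares its libraries with those above and is not separate evidence. Ccn2 was 2.07-fold lower with Osm than with TGF-beta1 (2.03 to 2.11), the single member past 2-fold, a rule that 2.42% of tested genes passed downward. Ajuba was 1.60-fold lower (1.39 to 1.83), and downward differences of 1.5-fold were found in 6.16% of tested genes and 5.02% at 5 CPM. None was at least 1.5-fold higher, against 9.93% (7.5% at 5 CPM), or at least 2-fold higher, against 5.07%. Tead1 was 1.46-fold lower (1.40 to 1.52), Ccn1 1.43-fold lower (1.39 to 1.48) and Ankrd1 1.32-fold lower (1.04 to 1.68). Amotl2 and Lats2 were 1.16-fold and 1.18-fold lower with Osm. Yap1 was 1.15-fold higher with Osm (1.08 to 1.22), alone in that direction, and the interval of Wwtr1 spans 1. Of the 9, 7 had an interval below 1 and 1 above, against 26.6% and 24.6% of tested genes, shares that are not matched for count level.

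Relatives of these genes show which paralog carried most of the RNA. Of the summed FPKM of Yap1 and Wwtr1 (52.1 with vehicle, 50.6 with Osm and 50.4 with TGF-beta1), Wwtr1 made up 73.6%, 72% and 75.4%. In CPM, which is not scaled by gene length, Wwtr1 was also the higher in every library. It was at 183.2, 174.8 and 181.1 CPM against 127.5, 131.9 and 114.6 for Yap1. The size of its lead depends on the deposited gene lengths, 9257 bases for Yap1 and 4779 for Wwtr1. Among the TEAD genes Tead1 led with 55.9%, 54.4% and 60.3% of the family's FPKM, and the family sum was 32.7, 29.2 and 38.8. Tead3 was 1.37-fold higher with TGF-beta1 than with vehicle (1.25 to 1.49) and Tead2 1.44-fold lower (1.27 to 1.63). Tead4 was 2.53-fold higher (1.49 to 4.63) but rare, at 1.03, 1.67 and 2.66 CPM.

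In the CCN family, Ccn2 went from 48.4% of the summed FPKM with vehicle and 46.7% with Osm to 62.6% with TGF-beta1. The other members moved apart. Ccn4 (WISP1) was at 146.6 CPM with vehicle and 336.5 with TGF-beta1, 2.30-fold higher (2.19 to 2.40). Ccn3 (NOV) was at 111.7 and 32.6 CPM, 3.43-fold lower (3.13 to 3.76), and Ccn5 (WISP2) at 201.6 and 133.3 CPM, 1.51-fold lower (1.44 to 1.59). Ccn6 had no count in any library, which allows up to the floor given above. With Osm, Ccn5 was 1.2-fold higher (1.15 to 1.25), while the intervals of Ccn3 and Ccn4 span 1.

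By the deposited FPKM, Lats2 was the lesser of its pair, at 37.3%, 33.0% and 34.9% of the summed FPKM of Lats1 and Lats2. Since 41.2% of the 50-base windows of Lats2 are shared with Gm49361, the order of this pair is uncertain. Amotl2 had the largest share of the angiomotin family by FPKM, with 55%, 53.1% and 58.4%. In CPM, which is not scaled by gene length, Amotl1 was above it in every library. Amotl1 was at 341.1, 325.6 and 323.4 CPM and Amotl2 at 301.3, 268.6 and 312.3. The order of these 2 genes therefore depends on the gene lengths used and is uncertain. Ajuba had the lowest FPKM of the 3 related LIM genes, with 18.4%, 19.6% and 29.2% beside Limd1 and Wtip. With TGF-beta1 it was close to Wtip, at 8.42 against 9.26 FPKM, so their order in that library is uncertain. Neither Limd1 nor Wtip was higher with TGF-beta1: Limd1 was at 73.2 and 66.8 CPM and Wtip at 24.8 and 22 CPM with vehicle and TGF-beta1.

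**Figure D4:**
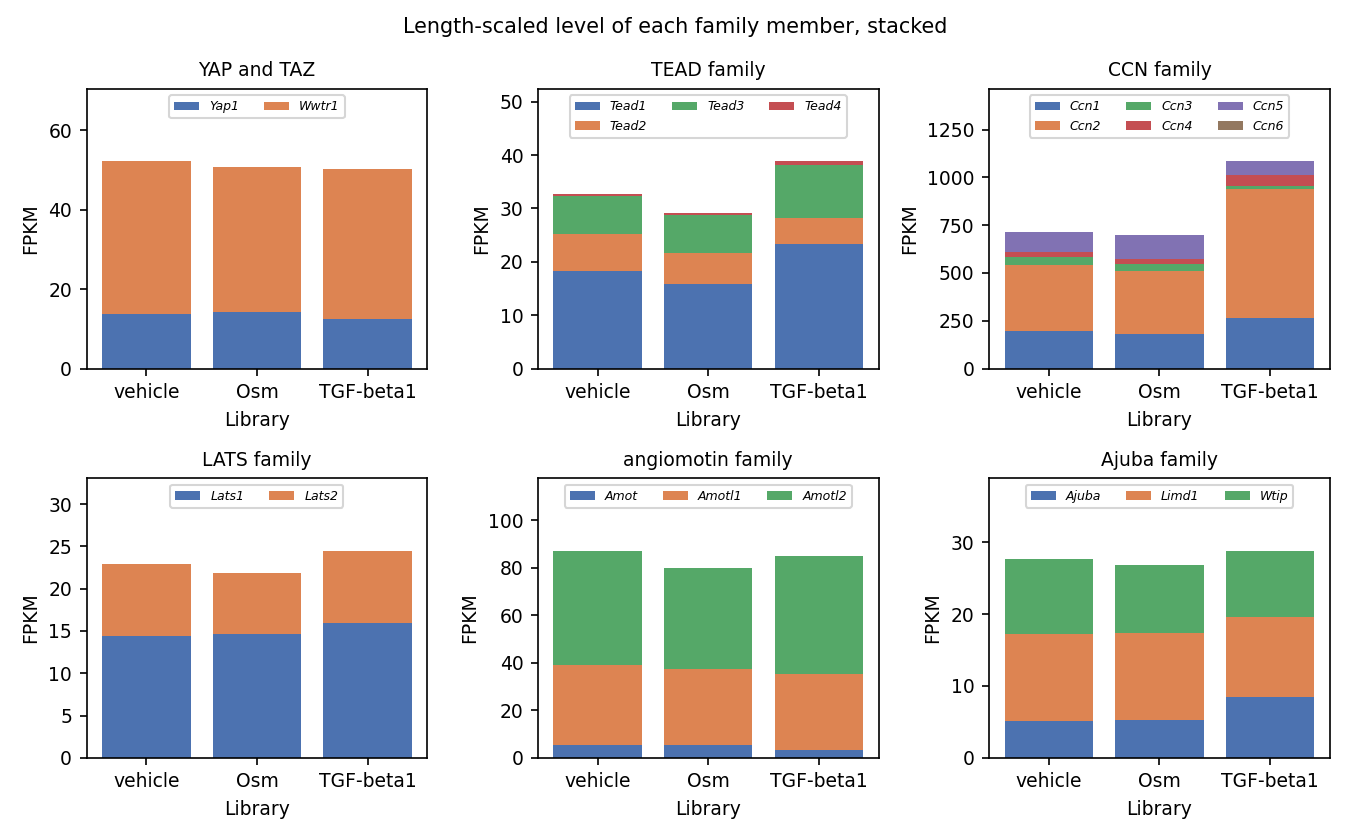
Length-scaled level (FPKM, the authors' deposited values) of each paralog, stacked, in the 3 libraries, 1 library per bar. Wwtr1 exceeds Yap1 and Tead1 exceeds the other TEAD genes in every library, and the CCN sum is highest with TGF-beta1 (1083 FPKM against 713.8 with vehicle), mostly Ccn2.

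Other genes of the pathway went both ways with TGF-beta1. Of 21 Hippo kinase core genes and upstream regulators, 1 (4.76%) passed the 1.5-fold rule upward and 1 downward, against 6.01% and 9.53% of tested genes. None passed 2-fold, and the log2 ratios ran from -0.73 to 0.85 with a median of -0.02. The upper end came from a rare gene, at 0.652 CPM with vehicle and 1.19 with TGF-beta1. The interval of its ratio spans 1 (0.867 to 4.06). Wwc2, a relative of the Hippo activator KIBRA, was at 121.9 CPM with vehicle and 188.1 with TGF-beta1, 1.54-fold higher (1.46 to 1.63), and the Hippo kinase gene Stk4 was 1.17-fold higher (1.05 to 1.31). Amot, the founding angiomotin, was 1.66-fold lower (1.49 to 1.86) at 44.8 and 26.9 CPM. Map4k4, a kinase that can activate LATS, was 1.41-fold lower (1.36 to 1.46). With Osm none of the 21 passed the 1.5-fold rule, which 2.1% of tested genes passed upward and 1.66% downward. Of 7 other TEAD and Vgll genes 5 were tested, with a median of 0.19 for TGF-beta1 over vehicle that turns to -0.14 at 5 CPM or more, where the rare Tead4 drops out. Vgll3, a TEAD cofactor at 741.5 CPM with vehicle and 846.3 with TGF-beta1, was 1.14-fold higher (1.12 to 1.17), and Vgll4, a TEAD repressor, 1.39-fold lower (1.19 to 1.61). Vgll1 and Vgll2 had no count.

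The further targets, 17 genes that a published YAP/TAZ target signature holds beside 5 of the 9, went both ways with TGF-beta1. At least 1.5-fold higher were 2 of 17 (11.8%) and at least 1.5-fold lower another 2, against the 6.01% and 9.53% of all tested genes, and the median log2 ratio was 0.03. Nuak2, a stress kinase gene, was at 40.8 CPM with vehicle, 33.4 with Osm and 73.7 with TGF-beta1, 1.81-fold higher with TGF-beta1 (1.65 to 1.98). Dock5, a Rac activator, was 1.59-fold higher (1.46 to 1.73). F3, the gene for tissue factor, was at 449.7, 419.4 and 203.3 CPM, 2.21-fold lower with TGF-beta1 (2.13 to 2.30). Nt5e, the gene for CD73, was 2.41-fold lower (1.70 to 3.51) from 5.92 to 2.44 CPM. The higher ratios of Ccn2, Ankrd1 and Ajuba were thus not shared by most of this longer list. With Osm, 1 of the 17 (5.88%) passed the 1.5-fold rule downward and none upward, against 1.66% and 2.1% of tested genes. It was Tgfb2, named after its value was seen, 1.78-fold lower (1.43 to 2.21). Tgfb2 was at 13.4 CPM with vehicle and 7.55 with Osm.

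Some of the 9 genes are also targets of SRF with its MRTF cofactors, or of Smad factors, so both lists are given beside them. The SRF and MRTF list of 16 genes holds Srf, Mrtfa and Mrtfb themselves beside genes of the cytoskeleton. Of the 16, 4 (25%) were at least 1.5-fold higher with TGF-beta1 and none at least 1.5-fold lower, against 6.01% and 9.53% of tested genes. Of the 4, 2 passed 2-fold, against 2.27% of tested genes, and the list's median log2 ratio was 0.50. Acta2, smooth muscle actin, was 2.98-fold higher (2.90 to 3.05) and Tagln, transgelin, 2.86-fold higher (2.77 to 2.94), while Mrtfb and Vcl were 1.23-fold and 1.07-fold lower. Of 10 TGF-beta/Smad targets, 3 (30%) were at least 1.5-fold higher, 2 of them past 2-fold, and 1 (10%) was at least 1.5-fold lower, against the same shares, with a median of 0.16. Ltbp2, which binds elastic microfibrils, was 3.38-fold higher (3.31 to 3.46). Tgfbi was 2.32-fold lower (2.00 to 2.72) and Smad6 1.34-fold lower (1.11 to 1.62). With Osm no gene of either list passed the 1.5-fold rule, against 2.1% and 1.66% of tested genes.

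**Figure D5:**
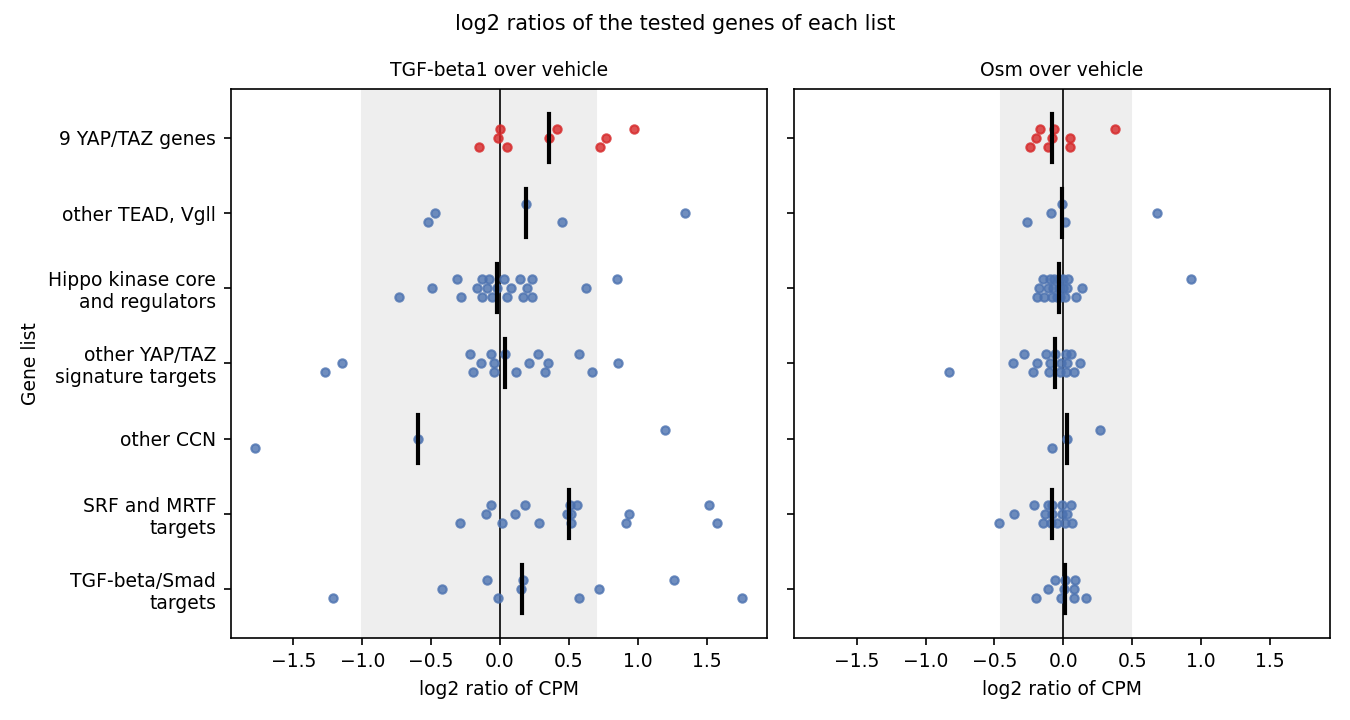
log2 ratios over vehicle of the tested genes of 7 lists, 1 point per gene, with TGF-beta1 (left) and Osm (right). Black bars are list medians and grey bands the 5th to 95th percentile of all tested genes; the medians with TGF-beta1 are 0.35 for the 9 YAP/TAZ genes, 0.03 for the other signature targets and 0.50 for the SRF and MRTF genes.

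Genes nearest to 3 of the targets were sought by the distance between their pairs of log2 ratios over vehicle (Osm and TGF-beta1), that is over 3 libraries. Out of a pool of 4387 protein-coding genes that reached 50 CPM, the nearest to Ccn2 were Loxl2 (distance 0.06), Col1a1 (0.06) and Slc7a5 (0.08). Loxl2, which crosslinks collagen, was at 194.9 CPM with vehicle, 190.4 with Osm and 394.4 with TGF-beta1, and Col1a1 at 4285, 4023 and 8039 CPM in the same order. The nearest to Ccn1 were Cacybp, Myl6 and Serpinf1, at distances of 0.0018, 0.010 and 0.015. For Ankrd1, among 9115 genes at 10 CPM or more, they were Mars2, Hat1 and Eefsec (0.032, 0.060 and 0.082). With so many genes and only 2 ratios, near neighbours exist for almost any pattern.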

How the data were processed

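RNA sequencing of 3 libraries was analysed, 1 each for vehicle, Osm and TGF-beta1, grouped by their treatment labels. Per the labels' protocols, RNA was poly-A selected and copied with random primers, and the strand setting is not stated. The authors deposited whole-number read counts per Ensembl gene, used as deposited, and FPKM values, which equal the counts divided by the deposited gene length and an effective library size. Build mm39 and the tools HISAT2, HISAT, TopHat2 and CASAVA come from the submitters' processing notes. For the read counter and annotation release nothing is given in the sources.

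Counts were scaled to CPM with TMM factors (R 4.3.3, edgeR 4.0.16; 1.00, 1.00 and 0.995). Tested were the 13712 genes that reached 1 CPM in any library. A gene passed a fold rule (2-fold or 1.5-fold) where its log2 ratio, with a prior count of 0.5, reached that fold and 1 lay outside the 95% Clopper-Pearson interval of the count ratio, taken as conditional binomial. Levels carry exact Poisson intervals. Reads have no molecular identifiers, so intervals cover counting error only. Alternatives were DESeq2 1.42.0 size factors, total counts, FPKM, a prior count of 2 and other filters. Scripts ran in Python 3.11.15 with pandas 2.3.3, scipy 1.17.1, matplotlib 3.10.9 and numpy 2.4.6.

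The 9 genes and the other lists (6 of pathway genes, 8 of cell type markers; 130 of 131 symbols found) were chosen with earlier results of these data known, and paralog families were grouped after values were seen. Named genes were the 9 and, from each pathway list, the 2 highest and 2 lowest TGF-beta1 over vehicle ratios at 5 CPM or more and any past 2-fold, of which 1 gene is not reported here. The nearest genes in pattern were named for Ccn1, Ccn2 and Ankrd1. Shared 50-base windows were counted in GENCODE M21 transcript sequences, matched by gene identifier. Gene positions are those of the deposited table (mm39) and promoter positions those of RefSeq on GRCm38.p6, and neither was converted.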

Additional observations from a re-analysis of the deposited data

How the results depend on the processing

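All 27 ratios of the 9 genes (9 genes in 3 comparisons) kept their sign under the 6 alternatives run, with a largest shift of 0.03 on the log2 scale (FPKM with a pseudocount of 0.1), and the number of them past 2-fold and 1.5-fold did not change. Among the list medians, that of the other TEAD and Vgll genes went from 0.19 to -0.14 for TGF-beta1 over vehicle, and from -0.28 to -0.01 for Osm over TGF-beta1, at 5 CPM or more, where fewer of its genes are tested. Counts over all genes moved with the filter, since it sets how many genes are tested. At 5 CPM or more, TGF-beta1 over vehicle gave 124 genes at least 2-fold higher and 306 lower, and 519 and 803 at 1.5-fold. Osm over vehicle then gave 13 and 10 at 2-fold and 75 and 68 at 1.5-fold, and Osm over TGF-beta1 307 and 144, and 809 and 541. With no filter, Osm over vehicle gave 237 higher and 231 lower at 2-fold and 370 lower at 1.5-fold. With FPKM it gave 56 lower at 2-fold, and the cause was not tested. No paired analysis was possible because each condition has 1 library, and for the same reason no library could be left out. Depth limits Ankrd1 most, with 98 to 168 counts, and Lats2 rests partly on sequence shared with Gm49361.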
